A study of Mus musculus with 4 samples.

Results

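Imprinted genes are genes read mainly from the copy inherited from 1 parent. Of 42 such genes chosen by symbol, 37 had an entry among the 17335 genes measured in gonadal white adipose tissue (gWAT), and 35 of these reached 0.1 FPKM (sequenced fragments scaled to transcript length and library size) in at least 1 library. By textbook knowledge of the mouse, 21 of the 42 are read from the paternal copy, 20 from the maternal copy, and Gnas from either copy depending on the isoform. H19, Phlda2, Meg3, Snrpn and Magel2 had no entry under these symbols and were not analysed here. Rtl1 and Usp29 had an entry but stayed below the minimum.

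The study asked what loss of the DNA methyltransferase Dnmt1 in fat cells does to gWAT of mice on a high-fat diet (HFD). AD1KO mice carried floxed Dnmt1, with loxP sites around exons 4 and 5, and a Cre gene under the adiponectin promoter. That promoter is active mainly in mature adipocytes, so the other cells of the tissue keep Dnmt1. Their fl/fl littermates carried the floxed gene without its deletion. All mice compared were female and had been on HFD for 18 weeks, and their age is not given in the sources used here. RNA of 4 animals per genotype was pooled, giving 1 library per group. There was thus no replicate error and no test. Each ratio compares the 2 libraries, and each 95% interval covers counting error only, not the spread between animals. In whole tissue, fewer cells of a type and less RNA per cell cannot be told apart.

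At an imprinted locus, DNA methylation is laid down in only 1 of the parental germ lines, at an imprinting control region. After DNA is copied, Dnmt1, guided by Uhrf1, restores that methylation, while Zfp57, Zfp445, Trim28 and Setdb1 hold it in place. Several imprinted genes bear on growth and fat. Igf2 is a fetal growth factor, Dlk1 keeps preadipocytes from maturing, Mest goes with fat cell expansion, and Grb10 restrains insulin signalling.

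Paternally expressed genes had a higher median ratio than maternally expressed genes. Of 17 paternally expressed genes compared, 15 were above 0 on the log2 scale of AD1KO over fl/fl, with a median log2 ratio of 0.43 and a range from -0.58 to 1.78. Of 17 maternally expressed genes, 11 were above 0, with a median of 0.09 and a range from -0.70 to 1.00. The medians differed by 0.33. Over all 15839 genes compared, the median was -0.04 and 45.3% were above 0. Counting genes whose reads in the 2 libraries sum to at least 20, the highest ratios were those of Dlk1, Nap1l5, Igf2, Plagl1 and Peg3, each read from the paternal copy.

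The study's threshold was a log2 ratio of 0.5 in either direction. Past it, 11 of the 35 imprinted genes (31.4%) were higher in AD1KO, against 14.3% of all genes compared. Another 3 (8.57%) were lower, against 19.1% of all genes. The higher genes were 8 paternally and 3 maternally expressed ones, and the lower genes were 2 paternally and 1 maternally expressed. With both libraries scaled to their upper quartile, the split over all genes was 17.6% higher and 16.5% lower, and that of the imprinted genes was 16 higher and 1 lower.

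Counting error alone left 15 of the 35 ratios undecided, since their intervals held 0. The whole interval lay above 0 for 15 imprinted genes, where 21.6% of all genes were above, and below 0 for 5, where 29.0% of all genes were below. These were 10 above and 1 below among the paternally expressed genes, 4 above and 4 below among the maternally expressed genes, and Gnas above. The whole interval lay above 0.5 for 6 imprinted genes, all paternally expressed (Dlk1, Nap1l5, Igf2, Plagl1, Peg3 and Nnat), where the share over all genes was 4.2%. It lay below -0.5 for 0 imprinted genes, where the share was 8.33%.

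**Figure D1:**
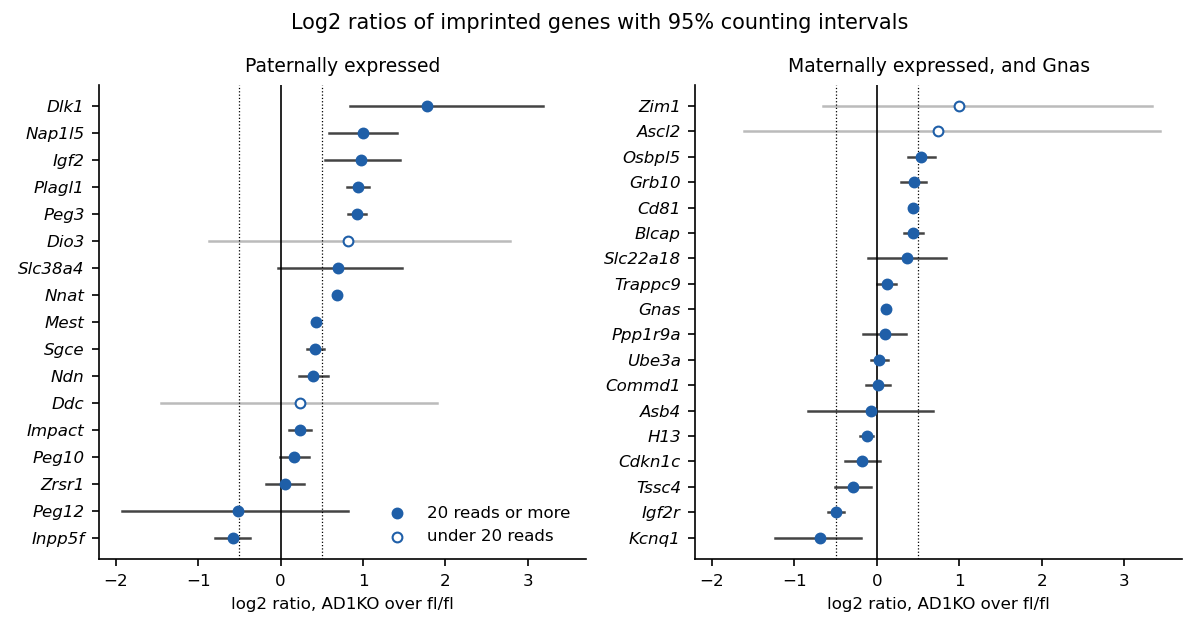
Log2 ratio of AD1KO over fl/fl for each imprinted gene compared, with paternally expressed genes on the left and maternally expressed genes and Gnas on the right; bars are 95% counting intervals, dotted lines mark 0.5 in either direction, and open points mark genes under 20 reads. The paternally expressed genes run from -0.58 (Inpp5f) to 1.78 (Dlk1), with 15 of 17 to the right of 0, and the maternally expressed genes from -0.70 (Kcnq1) to 1.00 (Zim1), with 11 of 17 to the right.

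Stretches of DNA just before the start of 5 paternally expressed genes are shown because they belong to loci among the highest by median ratio. The bases are RefSeq's promoter windows (build GRCm38.p6), cut so that no transcribed base of the gene itself is shown. Their mm9 positions were found by exact match. Transcribed bases of other genes were not cut, and Nap1l5 lies inside Herc3 on the opposite strand. Capitals mark CG dinucleotides, the sites that Dnmt1 keeps methylated when they carry methylation. Dlk1 (chr12:110690783-110691032, plus strand) and Dio3 (chr12:111517190-111517277, plus strand) share a locus, which was first in order of its median ratio. That order counted only members with at least 20 reads, so the median of this locus is the ratio of Dlk1 alone. Nap1l5 (chr6:58857121-58857370, minus strand), Plagl1 (chr10:12810388-12810496, plus strand) and Peg3 (chr7:6683133-6683380, minus strand) were added after their values were seen. Igf2, whose locus lay above those of Plagl1 and Peg3 in that order, has 4 windows and is not shown. The methylation of these sites was not analysed here.
Dlk1: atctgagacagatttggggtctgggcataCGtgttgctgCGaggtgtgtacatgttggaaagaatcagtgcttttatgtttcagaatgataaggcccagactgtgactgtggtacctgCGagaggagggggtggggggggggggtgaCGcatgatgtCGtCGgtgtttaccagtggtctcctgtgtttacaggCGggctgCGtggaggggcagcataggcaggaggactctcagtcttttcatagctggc
Dio3: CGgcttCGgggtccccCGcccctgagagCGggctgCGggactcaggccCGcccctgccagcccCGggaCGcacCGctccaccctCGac
Nap1l5: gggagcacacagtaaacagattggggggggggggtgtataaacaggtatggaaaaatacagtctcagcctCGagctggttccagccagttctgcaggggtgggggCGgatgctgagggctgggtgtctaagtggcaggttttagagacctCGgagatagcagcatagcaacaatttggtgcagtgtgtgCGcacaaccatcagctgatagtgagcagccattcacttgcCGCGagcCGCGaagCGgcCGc
Plagl1: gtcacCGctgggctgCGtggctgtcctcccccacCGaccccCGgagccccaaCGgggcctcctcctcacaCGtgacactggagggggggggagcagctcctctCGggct
Peg3: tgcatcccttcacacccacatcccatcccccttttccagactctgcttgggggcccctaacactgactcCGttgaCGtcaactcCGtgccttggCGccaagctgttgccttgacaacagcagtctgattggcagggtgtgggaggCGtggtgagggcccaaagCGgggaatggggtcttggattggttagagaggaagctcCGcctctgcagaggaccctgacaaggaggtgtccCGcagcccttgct

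The stretches held 8 CG dinucleotides in 250 bases before Dlk1, 8 in 248 before Peg3, 10 in 88 before Dio3 and 7 in 109 before Plagl1. The stretch before Nap1l5 held 10 in 250 bases, and in it lies TGCCGC, the hexamer that Zfp57 binds when it is methylated. Over full windows (250 bases before to 50 after a start), 34 of the 42 genes were matched in 55 windows. Not matched were Kcnq1, Peg10, Impact, Sgce, Trappc9, H19, Rtl1 and Cdkn1c. The median window of an imprinted gene held 15 CG dinucleotides, 10 for paternally and 18 for maternally expressed genes, where the median over all 32851 promoters was 7.

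Letters of 3 motifs were searched on both strands of these windows. TGCCGC lay in 12 of the 55 windows (21.8%) and in 11.6% of all promoters. By parental copy the shares were 25.0% of paternal and 21.7% of maternal windows. The genes were Nap1l5, Nnat, Plagl1, Mest, Igf2 and Snrpn on the paternal side and Grb10, Commd1, Osbpl5, Zim1 and Meg3 on the maternal side. CCGCGNGG, a core of the Ctcf sites of the H19 control region, lay in 5 windows (9.09%) and in 6.26% of all promoters. GCCATNTT, bound by Yy1, lay in 2 windows (3.64%) and in 6.05% of all promoters. TGCCGC and CCGCGNGG themselves hold CG dinucleotides, of which the median window held 15 against 7 over all promoters. Windows were not matched for CG content. A match says only that these letters are in the window, and several windows of 1 gene can overlap.

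Dlk1 (gene 13386, chr12:110691033-110701546, plus strand), preadipocyte factor 1, was at 0.13 FPKM in fl/fl against 0.47 FPKM in AD1KO. The values rest on about 9 and 34 reads, and the log2 ratio was 1.78 (95% counting interval 0.84 to 3.18). With 1 FPKM added to each value in place of 0.01, the ratio was 0.38, under the threshold. Dlk1 was thus near the lower end of the levels measured, with 10.8% of genes compared below it by mean level.

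Igf2 (gene 16002, chr7:149836673-149852721, minus strand), the insulin-like growth factor that signals through the IGF1 and insulin receptors, was at 1.41 FPKM in fl/fl against 2.78 FPKM in AD1KO. From about 63 and 124 reads, the log2 ratio was 0.97 (0.54 to 1.45). AD1KO was close to the fl/fl level times 2, a log2 ratio of 1, and the interval was narrower than that of Dlk1.

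Plagl1 (gene 22634, chr10:12810497-12851500, plus strand) encodes a zinc finger transcription factor that restrains cell division and acts on other imprinted genes. It was at 6.89 FPKM in fl/fl against 13.19 FPKM in AD1KO, about 711 and 1348 reads. The log2 ratio was 0.94 (0.80 to 1.07).

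Peg3 (gene 18616, chr7:6656603-6683132, minus strand), a zinc finger protein tied to growth, maternal care and fat reserves in mice, gave nearly the same ratio. It was at 6.51 FPKM in fl/fl against 12.39 FPKM in AD1KO, and its log2 ratio was 0.93 (0.82 to 1.04) from about 1046 and 1972 reads. Nap1l5 (gene 58243, chr6:58855228-58857120, minus strand), a nucleosome assembly protein relative, went from 2.42 to 4.84 FPKM, a log2 ratio of 1.00 (0.59 to 1.41). The intervals of Nap1l5, Igf2, Plagl1, Peg3 and Dlk1 each held 1, the value at which the AD1KO level is the fl/fl level times 2. As these genes were named for their high ratios, their likeness is a description only. The intervals of Nnat (0.65 to 0.73) and Mest (0.40 to 0.46) lay below 1, as did those of Sgce, Ndn and Impact. Those of Slc38a4, Dio3 and Ddc, from few reads, held 1.

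The most abundant paternally expressed genes of gWAT were Nnat and Mest. Nnat (gene 18111, chr2:157385814-157388258, plus strand), neuronatin, a small protein of the endoplasmic reticulum of brain and fat, was at 414.07 FPKM in fl/fl against 668.08 FPKM in AD1KO. Its log2 ratio was 0.69 (0.65 to 0.73). Mest (gene 17294, chr6:30673547-30698457, plus strand) was at 378.25 FPKM in fl/fl against 508.55 FPKM in AD1KO, a log2 ratio of 0.43 (0.40 to 0.46). Both were higher in AD1KO, and Mest stayed under the threshold. With about 8269 reads or more in each library, their intervals were the narrowest among paternally expressed genes.

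Sgce, Ndn and Impact had smaller ratios with intervals above 0. Sgce, the epsilon sarcoglycan of the membrane complex that links muscle and other cells to matrix, went from 46.43 to 62.15 FPKM (log2 ratio 0.42, interval 0.32 to 0.52). Ndn, necdin, a MAGE family protein that restrains adipocyte formation, went from 17.32 to 22.77 FPKM (0.39, 0.22 to 0.57). Impact, which inhibits the stress kinase GCN2, went from 14.58 to 17.20 FPKM (0.24, 0.11 to 0.37). These 3 genes stayed under the threshold of 0.5.

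Peg10 and Zrsr1 had intervals that held 0. Peg10, a retrotransposon-derived gene needed for the placenta, was at 4.44 FPKM in fl/fl against 4.98 FPKM in AD1KO (log2 ratio 0.17, interval -0.0091 to 0.34). Zrsr1, a relative of a splicing factor, was at 3.94 and 4.08 FPKM (0.05, -0.18 to 0.28). Their intervals leave out a log2 ratio of 0.5.

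Slc38a4, an amino acid transporter, was at 0.39 FPKM in fl/fl against 0.64 FPKM in AD1KO from 26 and 42 reads (log2 ratio 0.70, interval -0.03 to 1.47). Dio3, the deiodinase that inactivates thyroid hormone, was at 0.16 and 0.29 FPKM from 5 and 9 reads (0.82, -0.87 to 2.79). Ddc, which makes dopamine and serotonin, was at 0.21 and 0.25 FPKM from 7 and 8 reads (0.24, -1.45 to 1.90). No difference was detectable for these genes at this depth. Rtl1, a retrotransposon-derived gene of the Dlk1 locus, was at 0.03 and 0.06 FPKM from 3 and 5 reads. Usp29 was listed in both libraries at 0.01, the value written for 0, and was counted as 0 reads in each.

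Paternally expressed genes below 0 were Inpp5f and Peg12. Inpp5f (gene 101490, chr7:135754842-135839939, plus strand), a phosphoinositide phosphatase whose imprinting is known for 1 isoform in brain, was at 7.75 FPKM in fl/fl against 5.18 FPKM in AD1KO. Its log2 ratio was -0.58 (-0.79 to -0.37) from about 467 and 309 reads. Peg12, a Frat family gene of Wnt signalling, was at 0.29 and 0.20 FPKM from 13 and 9 reads (log2 ratio -0.51, interval -1.92 to 0.82). The interval was below 0 for Inpp5f and held 0 for Peg12.

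**Figure D2:**
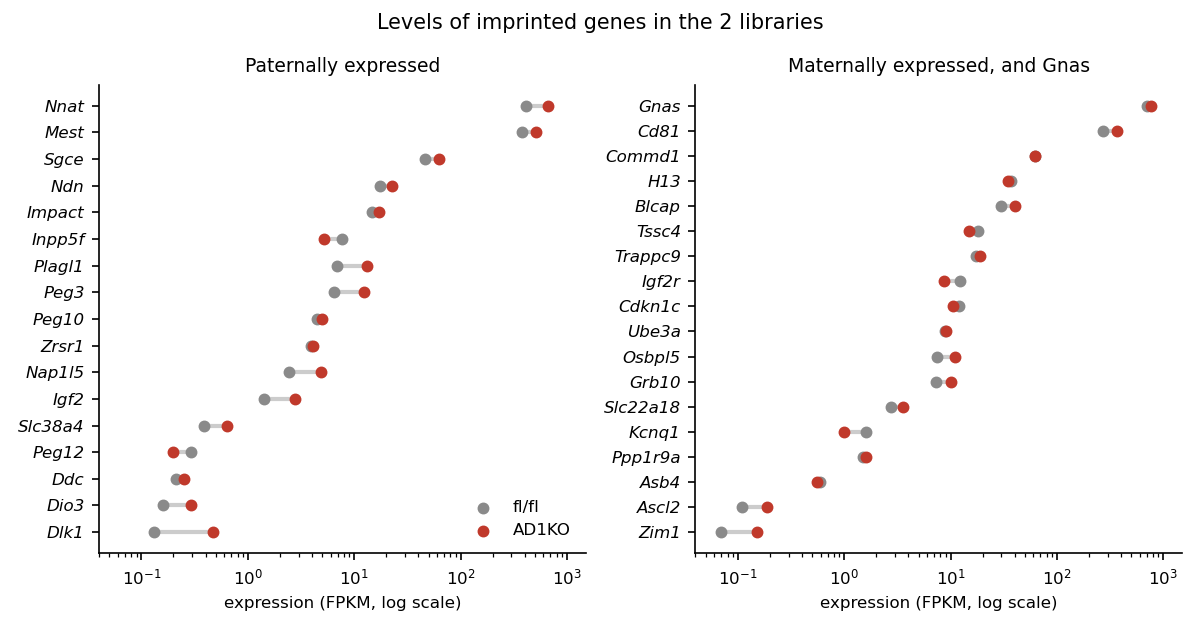
Expression of each imprinted gene compared in FPKM on a log axis, with the fl/fl library in grey and the AD1KO library in red, ordered by the fl/fl level. Nnat and Mest among paternally expressed genes and Gnas and Cd81 on the other side lie above 200 FPKM in both libraries, and Dlk1, Dio3, Ddc, Ascl2 and Zim1 lie under 1 FPKM.

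Maternally expressed genes that restrain growth did not share 1 direction. Igf2r (gene 16004, chr17:12875272-12962530, minus strand), the receptor that takes IGF2 to the lysosome, was at 12.32 FPKM in fl/fl against 8.74 FPKM in AD1KO. Its log2 ratio was -0.49 (-0.60 to -0.40) from about 1928 and 1354 reads. Igf2r was thus lower in the library in which Igf2 was higher.

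Cdkn1c (gene 12577, chr7:150644255-150646955, minus strand), the cell cycle inhibitor p57, was at 11.98 FPKM in fl/fl against 10.60 FPKM in AD1KO. The interval of its log2 ratio of -0.18, from -0.39 to 0.04, held 0. Grb10 (gene 14783, chr11:11830511-11938686, minus strand), the adaptor that binds the insulin receptor, was at 7.37 FPKM in fl/fl against 10.03 FPKM in AD1KO, a log2 ratio of 0.44 (0.29 to 0.60). Grb10 was higher in AD1KO and Cdkn1c could not be told from 0.

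The widest set of neighbouring imprinted genes was the distal chromosome 7 domain around Kcnq1, with 7 genes compared and a median log2 ratio of 0.36. Osbpl5, an oxysterol-binding protein relative that moves lipids between membranes, went from 7.52 to 10.94 FPKM (0.54, 0.37 to 0.71). Cd81, a tetraspanin of the cell surface, went from 269.77 to 366.70 FPKM (0.44, 0.40 to 0.49). In the same domain, Tssc4, which helps assemble the splicing machinery, was lower, at 18.20 and 14.90 FPKM (-0.29, -0.51 to -0.08).

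Kcnq1 (gene 16535, chr7:150293159-150612955, plus strand), the potassium channel for which the domain is named, had the lowest ratio of all imprinted genes compared. It was at 1.61 FPKM in fl/fl against 0.99 FPKM in AD1KO, from about 84 and 51 reads, a log2 ratio of -0.70 (-1.24 to -0.19). Slc22a18, a membrane transporter, was at 2.78 and 3.58 FPKM (0.36, -0.11 to 0.84). Ascl2, a transcription factor of the trophoblast, was at 0.11 and 0.19 FPKM from 3 and 5 reads (0.74, -1.61 to 3.44). Members of this domain thus lay on both sides of 0. Osbpl5, Cd81, Tssc4 and Ascl2 are known as imprinted mainly in placenta.

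Blcap (gene 53619, chr2:157382098-157397010, minus strand), a small protein tied to apoptosis, contains Nnat in an intron on the opposite strand. It went from 29.60 to 40.21 FPKM (log2 ratio 0.44, interval 0.32 to 0.56). H13, a signal peptide peptidase, was at 37.41 and 34.39 FPKM (-0.12, -0.20 to -0.04). Gnas (gene 14683, chr2:174109821-174172245, plus strand), the stimulatory G protein subunit that couples beta-adrenergic receptors to lipolysis, was the most abundant imprinted gene, at 707.69 and 766.14 FPKM. Its log2 ratio was 0.11 (0.09 to 0.14), small beside those of Nnat and Mest.

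The other 6 maternally expressed genes had intervals that held 0. Ube3a, the ubiquitin ligase imprinted in neurons, was at 8.95 FPKM in fl/fl against 9.13 FPKM in AD1KO (log2 ratio 0.03, interval -0.08 to 0.13). Commd1, of endosome and copper transport, was at 62.07 and 62.52 FPKM (0.01, -0.14 to 0.16). Trappc9, of vesicle transport, was at 17.30 and 18.76 FPKM (0.12, -0.0025 to 0.24). The intervals of these 3 leave out 0.5 in both directions.

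Ppp1r9a, neurabin, was at 1.49 and 1.59 FPKM (0.09, -0.16 to 0.35). Asb4, an adaptor of a ubiquitin ligase, was at 0.59 and 0.56 FPKM (-0.07, -0.83 to 0.68), and its ratio changed to 0.01 under upper-quartile scaling. Zim1, a zinc finger gene beside Peg3, was at 0.07 and 0.15 FPKM from 4 and 9 reads (1.00, -0.66 to 3.34). The reads of Zim1 and Asb4 were too few to show a difference of this size.

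Because some genes are imprinted in brain or placenta only, the groups were also compared for genes imprinted in many tissues. The class of each gene, many tissues or restricted, was assigned by hand, and imprinting in gWAT was not analysed here. The 15 such paternally expressed genes had a median log2 ratio of 0.69, with 8 (53.3%) higher and 1 (6.67%) lower past the threshold. Over all genes compared, 14.3% were higher and 19.1% lower. Inpp5f, at -0.58, and Ddc, at 0.24, were left out as restricted. The 7 such maternally expressed genes had a median of -0.07, the ratio of Asb4. Of them, 1 (14.3%) was higher, Zim1 from 4 and 9 reads, and 1 (14.3%) was lower, Kcnq1. The gap between medians was 0.76. The 10 maternally expressed genes with restricted imprinting had a median of 0.11, with 2 higher and 0 lower.

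The gap kept its direction among well covered genes. Where the reads of the 2 libraries summed to at least 200, 4 of 11 paternally expressed genes were higher and 1 lower, with a median of 0.42. Of 12 maternally expressed genes, 1 was higher and 0 were lower, with a median of 0.06, and over all 10869 genes at that depth 7.94% were higher and 13.5% lower. Summed over their members, reads of paternally expressed genes went from 30563 to 43304, a log2 ratio of 0.52 (0.50 to 0.54), and those of maternally expressed genes from 18253 to 20544, a log2 ratio of 0.18 (0.16 to 0.21). Mest is the largest part of the first sum and Cd81 of the second. Without these genes the log2 ratios of the sums were 0.61 and 0.0072, so the maternal value rests on Cd81.

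A grouping by control region was added after the values were seen. Plagl1, Peg3, Mest, Nnat, Nap1l5, Peg10, Sgce, Zrsr1 and Impact have, by textbook knowledge, a promoter at a control region that is methylated on the maternal copy. All 9 lay above 0, between 0.05 and 1.00, where 45.3% of all genes did, and their median log2 ratio was 0.43. Of the 9, 4 were past 0.5, where 14.3% of all genes were, 7 had the whole interval above 0, where 21.6% of all genes had, and 2 had an interval that held 0. The grouping holds neither Inpp5f, at -0.58, nor Peg12, at -0.51, the paternally expressed genes below 0. As the grouping followed the values, these counts support nothing. The deposited values do not separate the parental copies, so which copy gave the reads was not analysed here.

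Dnmt1 was lower in the library labelled AD1KO, at 3.33 FPKM against 6.99 in fl/fl, a log2 ratio of -1.07 (-1.27 to -0.87). The value covers the whole gene and not the deleted exons alone. Of 14 genes of imprint control compared, 0 were higher and 7 were lower past the threshold, against 14.3% and 19.1% of all genes, with a median log2 ratio of -0.48. Uhrf1, which guides Dnmt1 to newly copied DNA, was at 5.0 and 2.47 FPKM (-1.01, -1.31 to -0.73). Dnmt3a, which sets new methylation, was at 9.02 and 4.88 FPKM (-0.88, -1.01 to -0.76). The lowest ratio of the list was that of Dppa3, a protein of egg and early embryo, at 3.51 and 1.28 FPKM (-1.45, -2.25 to -0.76). Tet2 and Tet3, which act to remove methylation, were also lower, at log2 ratios of -0.85 and -0.50.

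The proteins that hold methylation at control regions were less uniform. Zfp57 was at 1.52 FPKM in fl/fl against 1.82 FPKM in AD1KO (log2 ratio 0.26, interval -0.35 to 0.87), and Zfp445 at 3.30 and 3.66 FPKM (0.15, -0.06 to 0.36). Their partner Trim28 was at 32.44 and 26.30 FPKM (-0.30, -0.40 to -0.20), and the histone methyltransferase Setdb1 at 11.34 and 7.97 FPKM (-0.51, -0.69 to -0.34). Ctcf, the insulator protein of the Igf2 and H19 locus, was at 10.69 and 9.32 FPKM (-0.20, -0.36 to -0.04). Intervals of both zinc finger genes held 0, while those of Trim28, Setdb1 and Ctcf were below 0.

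A further list of 32 imprinted genes outside the 42 gave 22 genes compared. Of these, 7 (31.8%) were higher past the threshold, against 14.3% of all genes, and 4 (18.2%) were lower, a share near the 19.1% of all genes. The median log2 ratio was 0.39. The highest with at least 20 reads were Slc22a2, an organic cation transporter, at 1.23 and 2.58 FPKM (1.06, 0.53 to 1.62), Ano1, a calcium-gated chloride channel, at 1.92 and 3.91 FPKM (1.02, 0.74 to 1.31), and Klf14, a regulator of fat genes beside Mest, at 3.46 and 6.35 FPKM (0.87, 0.60 to 1.15). All 3 are known as maternally expressed, so the highest ratios here were not those of genes known as paternally expressed. Whether these genes are imprinted in gWAT was not analysed here. Of the 4 lower genes, Ins2 rested on 1 read and Sfmbt2 on 14 and 5. Lowest with at least 20 reads were Qpct, an enzyme that modifies peptide ends, at 16.59 and 9.34 FPKM (-0.83, -1.03 to -0.63), and Tspan32, a tetraspanin of blood cells, at 6.91 and 4.39 FPKM (-0.65, -1.01 to -0.30). Next came Nap1l4, a histone chaperone, at 39.44 and 40.35 FPKM (0.03, -0.07 to 0.14). The median of this list was close to that of the 35 genes, which was 0.36.

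The IGF and insulin growth axis, on which Igf2, Igf2r and Grb10 act, had 13 genes compared. Of these, 5 (38.5%) were higher and 2 (15.4%) lower past the threshold, against 14.3% and 19.1% of all genes, with a median log2 ratio of 0.38. Igfbp2 and Igfbp3, which bind IGFs outside the cell, were at 1.11 and 3.44 FPKM (1.62, 0.91 to 2.39) and at 13.68 and 25.59 FPKM (0.90, 0.75 to 1.05). The RNA-binding proteins Igf2bp2, at 9.78 and 3.80 FPKM (-1.36, -1.59 to -1.14), and Igf2bp3, at 0.77 and 0.15 FPKM (-2.29, -3.46 to -1.44), were the 2 lower ones. Igf1r, the receptor for IGF1 and IGF2, was at 1.76 and 1.75 FPKM (-0.0082, -0.25 to 0.24).

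**Figure D3:**
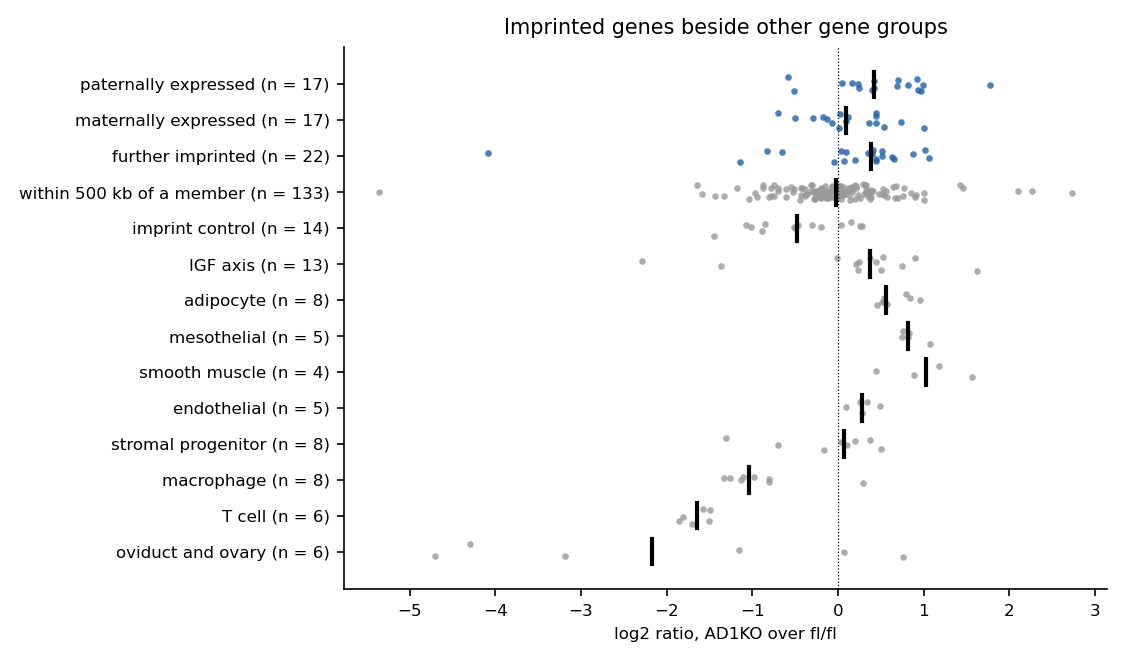
Log2 ratio of AD1KO over fl/fl for each gene of each group, 1 point per gene and a black bar at the median; n is the number of genes compared, imprinted groups are in blue and other groups in grey. The paternally expressed genes have a median of 0.43, the maternally expressed genes of 0.09, adipocyte markers of 0.56 and macrophage markers of -1.04.

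Genes around the imprinted genes were compared, a step added after the data were seen. Within 500 kb of a member in mm9, 133 genes on neither imprinted list were compared. Of these, 21 (15.8%) were higher and 23 (17.3%) lower, with a median log2 ratio of -0.02. These shares were near the 14.3% and 19.1% over all genes.

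For genes picked for their high ratios, a place above their neighbours follows from the choice, and the values are a description. Around Plagl1, 0 of 8 neighbours were higher and 1 was lower, with a range from -1.18 to 0.35 below the 0.94 of Plagl1. Around Nap1l5, 0 of 4 were past the threshold in either direction, and Herc3, the gene that contains Nap1l5 on the other strand, was at a log2 ratio of 0.20. Around Igf2, 0 of 6 were higher and 3 were lower, from -0.78 to -0.06. Peg3 had 1 of 9 neighbours higher, Zfp667 at 1.00, and 2 lower. Nnat had 1 of 9 higher and 2 lower, with a range from -1.64 to 2.26.

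Other members had neighbours on the same side of 0. Around Impact, 3 of 4 neighbours were higher, with a median of 0.52 against the 0.24 of Impact. Around Mest, 2 of 7 were higher, with a median of 0.29 against its 0.43. Around Inpp5f, 4 of 13 were lower, with a median of -0.20. Neighbours were taken whatever their reads.

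**Figure D4:**
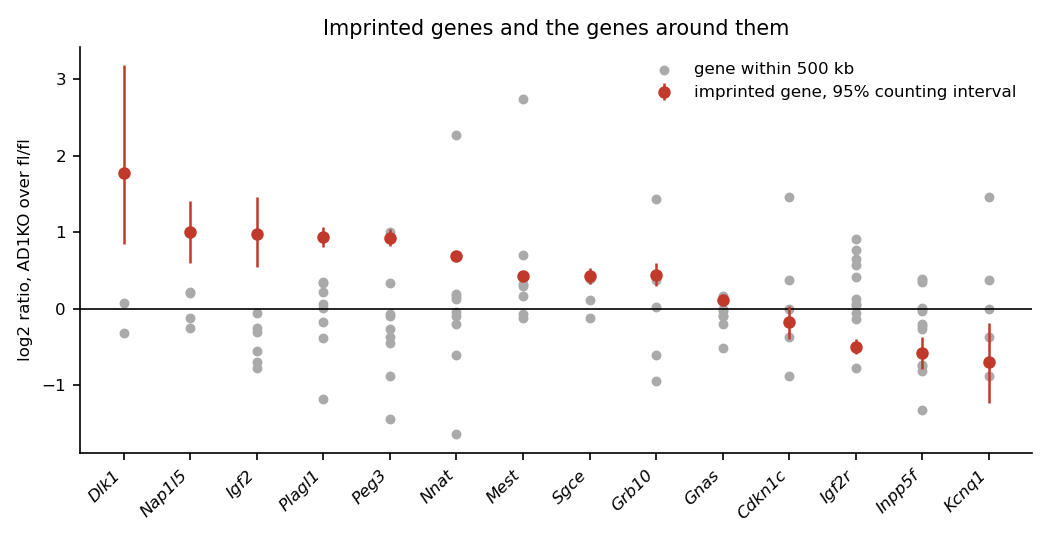
Log2 ratio of AD1KO over fl/fl for 14 imprinted genes (red, with 95% counting intervals) and for other genes within 500 kb of each (grey), 1 column per imprinted gene. Plagl1, Nap1l5, Igf2 and Dlk1 lie above all of their grey points, while Grb10, Igf2r and Kcnq1 lie among theirs.

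Cell type markers differed between the libraries too. All 8 adipocyte markers were above 0, 7 past the threshold, with a median log2 ratio of 0.56 and a summed level of 17144.62 FPKM in fl/fl against 26109.95 FPKM in AD1KO. Of 8 macrophage markers 7 were lower, with a median of -1.04 and a summed level of 3695.54 and 1826.79 FPKM, and all 6 T cell markers were lower, with a median of -1.64 and a summed level of 61.78 and 18.78 FPKM. All 5 mesothelial markers were higher (median 0.82, summed level 66.07 and 126.48 FPKM), as were 3 of 4 smooth muscle markers (1.03, 207.69 and 362.42 FPKM). Of the defining markers, Pax8 of the oviduct was listed at the value for 0 in AD1KO, and every other marker of these lists had reads in both libraries.

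The stromal progenitor markers had a median log2 ratio of 0.07, with 1 of 8 higher and 2 lower (summed level 1469.85 and 1356.59 FPKM). The 5 endothelial markers had a median of 0.29 with 0 past the threshold (103.02 and 120.85 FPKM). Of 6 oviduct and ovary markers 1 was higher and 4 were lower, with a median of -2.17 (11.37 and 4.68 FPKM), and Ovgp1, an oviduct glycoprotein, went from about 150 to 7 reads. The part of these shifts in cell makeup in the ratios of the imprinted genes was not tested.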

How the data were processed

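The deposited table holds 1 value per gene for each of the 2 pooled gWAT libraries. Per the labels and the study's methods, mRNA was selected with oligo(dT), sequenced on BGISEQ-500 by a service provider, and aligned to mouse mm9. The aligner, the quantification program and the strand setting are not given in the sources used here. Values are FPKM with 2 decimals as the authors deposited them, where 0 is written as 0.01 (726 genes in fl/fl, 730 in AD1KO). The deposited fold change and P-value columns were not used, nor were the RRBS samples analysed here.

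Log2 ratios are of FPKM plus 0.01, which understates changes of very low genes, for genes that reach 0.1 FPKM in either library. The plan allowed for either counts or FPKM, and it held no test because each group has 1 library. As low values of short genes fall near whole reads, depth was estimated from 311 and 295 such values: 17720000 reads in fl/fl and 17550000 in AD1KO, with 118 bases taken off each gene length. The mean distance to a whole read was 0.116 and 0.125, where 0.25 is the value with no steps. Intervals are exact Clopper-Pearson intervals at 95% on these estimated reads.

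Members and lists were chosen with earlier results of these data known, and the parental copy of each gene is from textbook knowledge. All 42 members are named. Of other genes, the named ones are Dnmt1, genes of the imprint control, IGF axis and marker lists, and the 3 highest and 3 lowest further imprinted genes with at least 20 reads. Neighbours, Copg2, Mcts2 and Snurf were named after their values were seen. Positions are from GENCODE's mm9 annotation, and promoters from RefSeq (GRCm38.p6). Steps were tested on simulated data. Alternatives tried were 3 other scalings (trimmed mean of M-values, upper quartile, median of ratios), other pseudocounts, filters, thresholds and gene subsets. Scripts ran in Python 3.11.15 with pandas 2.3.3, SciPy 1.17.1, Matplotlib 3.10.9 and NumPy 2.4.6.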

Additional observations from a re-analysis of the deposited data

How the results depend on the processing

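Under the 3 scalings, each of the 35 imprinted genes kept its direction, except Asb4, which changed to 0.01 under the upper quartile. A constant added to both values cannot change the direction of a ratio, so the other pseudocounts could not test it. The side of the 0.5 threshold changed for 1 gene under trimmed mean of M-values, 1 under median of ratios, 7 under the upper quartile, 2 with a pseudocount of 0.1 and 8 with a pseudocount of 1, among them Dlk1 at 0.38. The gap between medians was 0.33 under each scaling and 0.32 with a pseudocount of 1. A scaling shifts all ratios by nearly the same amount, so the scalings could hardly have changed the gap.

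With a pseudocount of 1, 5 imprinted genes were higher (5 paternally, 0 maternally expressed) and 1 lower, against 965 and 1661 of all genes. With at least 1 FPKM, 6 were higher (5 paternally, 1 maternally expressed) and 2 lower, against 1281 and 2068 of all genes. Fewer genes reach that minimum, and shares were not worked out for it. At a log2 ratio of 1, 2 of the 35 were higher (1 of each kind) and 0 lower, against 910 and 1417 of the 15839 genes. With the whole interval past 0.5, 6 were higher (0 maternally expressed) and 0 lower, against 666 and 1320. Under the upper quartile, 6 maternally expressed genes were higher and 1 imprinted gene was lower, where 17.6% of all genes were higher and 16.5% lower.

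The paternal median was 0.47, 0.52 and 0.46 under trimmed mean of M-values, upper quartile and median of ratios, 0.38 with a pseudocount of 1, and 0.69 for genes imprinted in many tissues. For those the maternal median turned to -0.074 and the gap was 0.76. From summed reads the paternal value was 0.52, and 0.61 without Mest and Cd81, where the maternal value was 0.0072 and the gap 0.61. The cause of these shifts was not tested, beyond the fewer genes or the added constant of the setting itself.

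No length correction, a smaller one or a larger one (the latter pair chosen after seeing the data) left 15, 16 and 15 intervals above 0, and 5 below in each case. No paired analysis was possible because each group has 1 library.

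Dlk1, Dio3, Ddc, Peg12, Ascl2, Zim1 and Slc38a4 rest on few reads, and their intervals are wide. Without the strand setting, reads of overlapping genes on opposite strands cannot be told apart.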

Other observations

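Several imprinted genes lie inside or across another gene, and the values of such pairs are uncertain where reads could be shared. Nnat lies within Blcap on the opposite strand, and both were higher in AD1KO, with log2 ratios of 0.69 and 0.44. Zrsr1 lies within Commd1 on the opposite strand, and both ratios were near 0, at 0.05 and 0.01. Nap1l5 lies within Herc3 on the opposite strand, and their ratios were 1.00 and 0.20.

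Mest overlaps Copg2, a coat protein gene on the opposite strand that is also imprinted in some tissues. Copg2 was at 89.34 FPKM in fl/fl against 127.64 FPKM in AD1KO, a log2 ratio of 0.51 (95% counting interval 0.46 to 0.57), against 0.43 for Mest. H13 overlaps Mcts2, a paternally expressed gene on the same strand. Mcts2 was at 6.55 and 10.29 FPKM (0.65, 0.23 to 1.08), while the maternally expressed H13 was at -0.12, so this pair had ratios of opposite sign. Nnat and Blcap, also a paternally and a maternally expressed gene, had ratios of the same sign. So had Zrsr1 and Commd1, though near 0.

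Snurf, which shares a transcript with Snrpn in the Prader-Willi locus, had an entry of its own. It was at 16.34 FPKM in fl/fl against 22.20 FPKM in AD1KO (log2 ratio 0.44, 0.28 to 0.60), near the 0.39 of Ndn from the same locus. Peg12 and Ube3a of that locus were at -0.51 and 0.03.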
